A study of Homo sapiens with 35 samples.

Results

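The genes for integrin subunits and laminin chains were followed in BE(2)-C, a human neuroblastoma cell line with an amplified MYCN gene that is a clonal derivative of SK-N-BE(2). Members were the probe sets annotated to a single symbol of the form ITGA or ITGB plus a number or letter, ITGA2B, or LAMA, LAMB or LAMC plus a number, with the brightest probe set standing for each gene. This gave 33 of the 11940 genes measured on the array, from 69 of its 22930 probe sets: 15 integrin alpha, 8 integrin beta, 4 laminin alpha, 4 laminin beta and 2 laminin gamma genes. All 35 arrays were hybridised with RNA of this line, kept for 6, 24 or 72 h with 5 uM all-trans retinoic acid (ATRA, the ligand of the retinoic acid receptors), with 1 mM valproic acid (VPA, a histone deacetylase inhibitor), with both or with their vehicle DMSO. Of the 12 groups, 11 had 3 arrays and DMSO at 72 h had 2. The labels do not say whether replicates came from separate passages, so each p-value measures the spread between these samples, which may be technical.

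Integrins are paired cell surface receptors made of an alpha and a beta subunit that tie the extracellular matrix to the actin cytoskeleton. The pair decides the ligand: alpha-6 with beta-1 or beta-4 binds laminins, alpha-5 with beta-1 binds fibronectin, and several alpha-v pairs bind vitronectin or fibronectin. Alpha-8 with beta-1 binds nephronectin and other proteins with an RGD motif, and the beta-2 and beta-7 pairs belong to leukocytes. Laminins are cross-shaped proteins of an alpha, a beta and a gamma chain that form the sheet of basement membranes. In the nervous system, laminin is a classic substrate for the outgrowth of neurites and for the migration of neural crest cells, from which neuroblastoma arises.

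Intensities are given on the linear scale of the deposited values. They ran from 9.48 to 26442, with lower quartiles of 20.8 to 23.6 per array. No detection calls came with them: of a group mean near 20.8 to 23.6 it cannot be said that it exceeds background, and the level of a probe set is not set against that of another. Array medians lay between 53.1 and 58.9, except replicate 1 of DMSO at 24 h with 43.6. The log2 ratio of 3' to 5' signal of the GAPDH and ACTB control probe sets, a measure of RNA integrity, was 1.06 ± 0.17 (SD, n = 2) in DMSO at 72 h, 1.09 ± 0.16 (n = 3) with VPA, 1.82 ± 0.17 (n = 3) with ATRA and 1.36 ± 0.07 (n = 3) with both. At 24 h the ratio was 1.05 ± 0.26 in DMSO, 1.60 ± 0.63 with VPA, 0.89 ± 0.36 with ATRA and 0.97 ± 0.33 with both (n = 3 each). Replicate 2 of VPA at 24 h read 2.33. At 6 h the ratio was 0.27 ± 0.09, 0.44 ± 0.06, 0.20 ± 0.07 and 0.39 ± 0.45 in the same order (n = 3 each). Of 12 measured markers of noradrenergic neuroblasts, 11 stood above 47.3, which is 2 times the highest lower quartile, in every group, and HAND2 lay between 25.3 and 40.9. Of 11 haematopoietic markers, CORO1A alone stood above 47.3 in every group, CD53 reached 47.5 with ATRA at 72 h, and PTPRC, which encodes the leukocyte antigen CD45, stayed under 23.6 in every group, at 16.1 in the lowest. Endothelial markers summed to between 120 and 163 on every array, with PECAM1 between 17.5 and 20.4. TEK, an endothelial marker with group means from 35.4, reached 49.9 with VPA at 24 h.

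Much of the set had low signal. In 20 of the 33 genes no group mean reached 47.3, as in 36.1% of all genes. In 9 of those 20 none rose above 23.6. The 13 brighter genes were LAMA4, LAMA5, LAMB1, LAMB2 and LAMC1 among the laminins, ITGA5, ITGA6, ITGA8, ITGAE, ITGAV and ITGAX among the alpha subunits, and ITGB1 and ITGB5 among the beta subunits. LAMA4 was above 47.3 in the groups with ATRA at 24 and 72 h and in no other. Of the 33 genes, 15 passed an adjusted p of 0.05 in at least 1 of the 9 comparisons of a treatment with DMSO of the same time, and so did 55.1% of all genes. Of the 13 brighter members 11 passed, beside 75.3% of the 7632 genes with a group mean of 47.3 or more. Of the 20 dim members 4 passed.

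**Figure D1:**
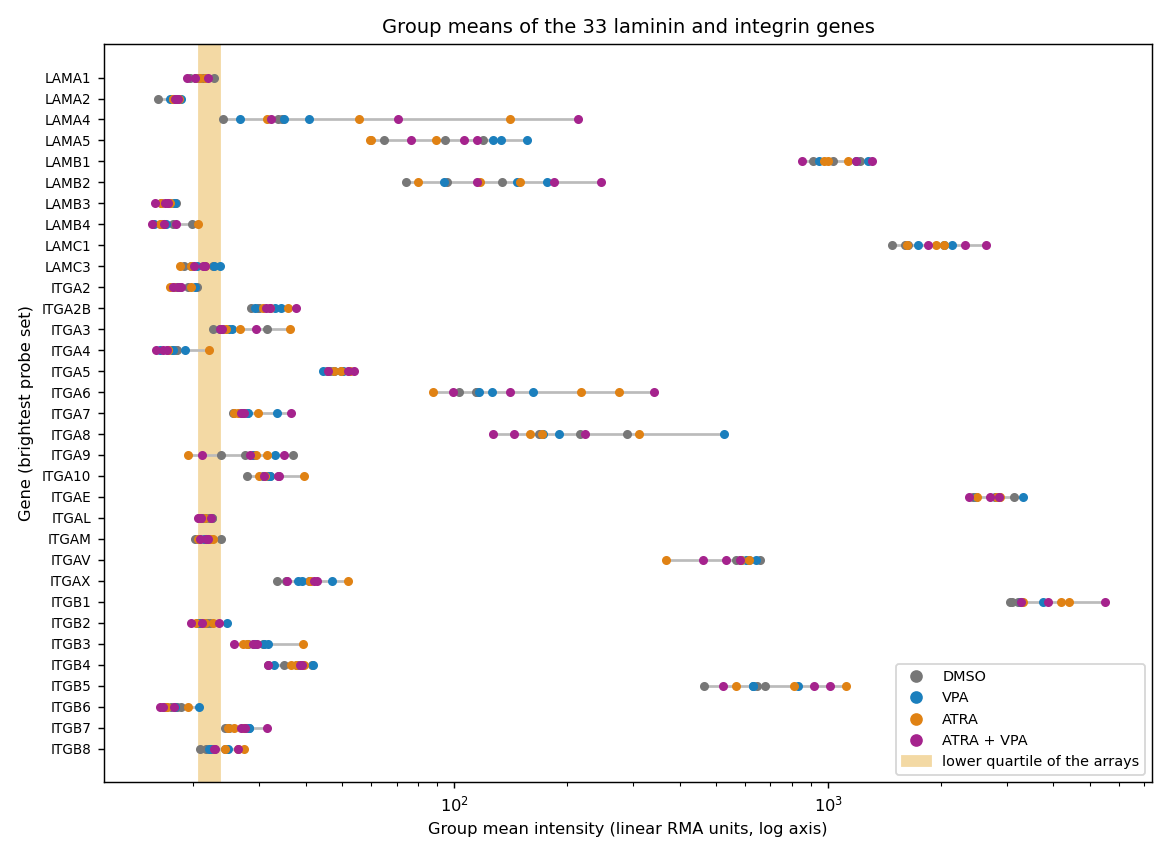
Mean intensity of each of the 12 groups (points, coloured by treatment, on a log axis) for the brightest probe set of the 33 genes, with the band of lower quartiles of the arrays, 20.8 to 23.6. LAMA4, ITGA6 and ITGA8 spread widely between groups, while 20 genes stayed below 47.3 in every group.

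Over the 9 comparisons with DMSO the members gave 48 calls, 39 higher and 9 lower, with many genes called more than once. Among all genes at 6 h, 123 were called higher and 70 lower with ATRA, 771 and 561 with VPA, and 804 and 581 with both. At 72 h these were 539 and 257 with VPA and 1779 and 1981 with both, and the splits of the other comparisons are given below. At 6 h, ITGB5 alone rose with ATRA (1 of 33 members; 1.62% of all genes were called), LAMA5 alone rose with VPA (1 of 33; 11.2% of all genes), and 3 rose and 1 fell with both agents (11.6% of all genes). At 24 h, 5 rose and 1 fell with ATRA (18.5% of all genes), 3 rose and 1 fell with VPA (12.2%), and 7 rose and 2 fell with both (21.2%). At 72 h, 7 rose and 2 fell with ATRA (30.9% of all genes), 6 rose and none fell with VPA (6.67%), and 6 rose and 2 fell with both (31.5%). The members' own shares at 72 h were 27.3% with ATRA, 18.2% with VPA and 24.2% with both, and their median log2 changes were 0.13, 0.13 and 0.04, against medians of 0.00, -0.02 and -0.01 over all genes. A second quantile normalization of the arrays moved the balance of all calls: from 1493 higher and 720 lower to 1063 and 1198 with ATRA at 24 h, from 1154 and 297 to 991 and 449 with VPA at 24 h, from 1606 and 930 to 1333 and 1352 with both at 24 h, and from 1277 and 2413 to 1524 and 1793 with ATRA at 72 h. The members' calls under it were 5 higher and 1 lower, 2 and 1, 6 and 2, and 8 and 2 in these comparisons. All comparisons at 1 time share the same DMSO arrays.

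**Figure D2:**
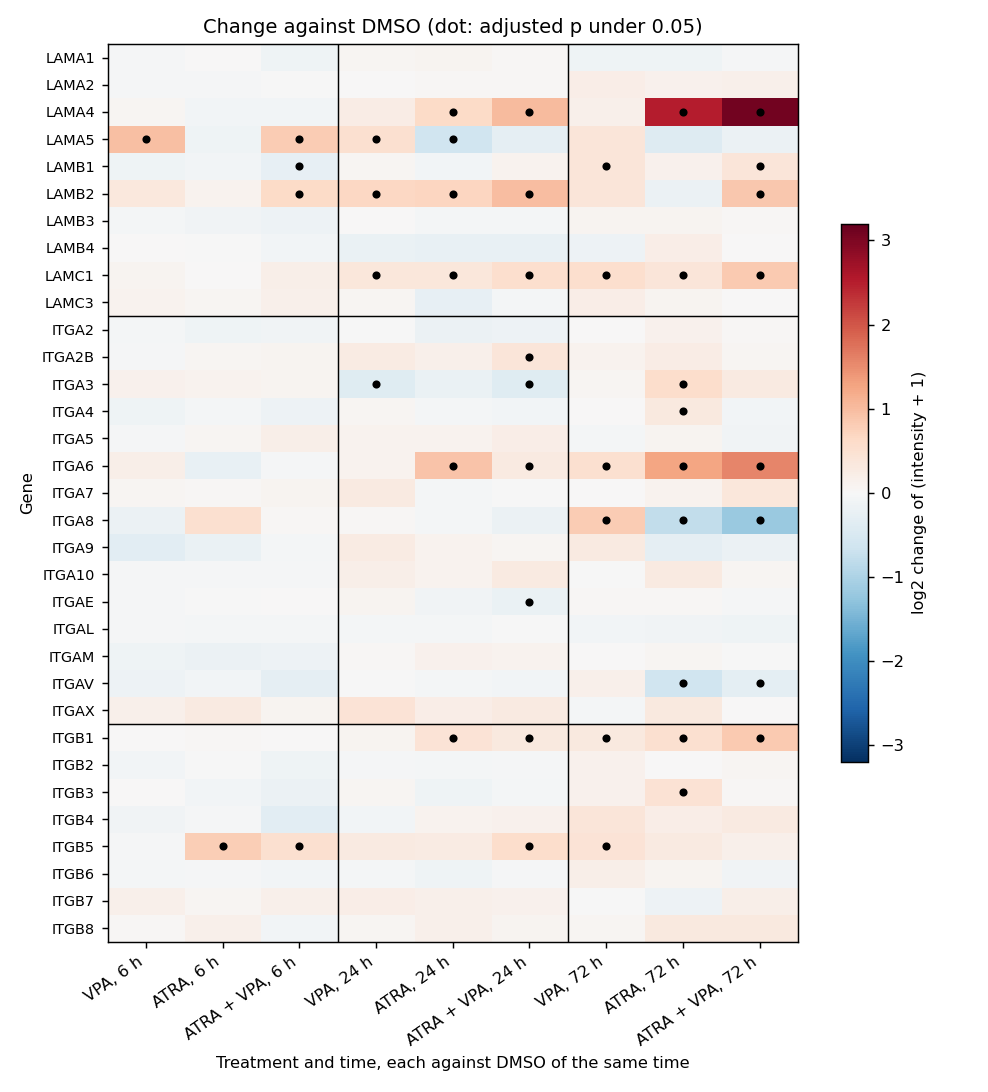
The log2 change of each of the 33 genes (rows) in the 9 comparisons with DMSO of the same time (columns, colour scale in log2 units), with a dot where the adjusted p was under 0.05. The 6 changes of 1 or more in size belong to LAMA4, ITGA6 and ITGA8, and 5 of them lie at 72 h.

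Laminin alpha chains give each laminin its receptor binding, and here the alpha-4 and alpha-5 genes moved in different ways. LAMA4, which encodes the alpha-4 chain of vascular and peripheral nerve basement membranes, rose strongly with ATRA, alone or with VPA, and late. Its intensity at 72 h was 22.2 and 25.9 on the DMSO arrays, 26.6, 23.7 and 29.9 with VPA, 134, 126 and 163 with ATRA, and 215, 168 and 260 with both agents. The VPA arrays overlapped the DMSO arrays, the ATRA arrays stood above both, and the arrays of both agents stood above the ATRA arrays. The log2 change against DMSO was 2.50 ± 0.19 (SE) with ATRA (5.66-fold as measured, adjusted p = 2.4e-11) and 3.09 ± 0.19 with both (8.49-fold as measured, adjusted p = 1.4e-13). With VPA it was 0.15 ± 0.19 (adjusted p = 0.79). The DMSO arrays lay at the lower quartiles, where signal and background cannot be told apart, so the size of these rises is uncertain and depends on the pseudocount: with 32 in place of 1 the log2 changes were 1.62 with ATRA and 2.12 with both.

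The rise of LAMA4 had begun at 24 h, when DMSO arrays read 31.4, 33.8 and 38.4, ATRA arrays 50.3, 77.3 and 39.0, and arrays of both agents 76.0, 71.3 and 64.2. The changes were 0.62 ± 0.17 with ATRA (adjusted p = 0.01) and 1.01 ± 0.17 with both (adjusted p = 5.3e-05). The ATRA change at 24 h was not past the threshold without its replicate 2 (0.35, adjusted p = 0.14) or without DMSO replicate 1 (0.55, adjusted p = 0.053). It was also lost in a fit of the compared arrays alone (adjusted p = 0.19). At 6 h all 12 arrays lay between 28.3 and 40.0. The change at 72 h exceeded that at 6 h by 2.60 ± 0.26 with ATRA (adjusted p = 1.6e-08) and by 3.16 ± 0.26 with both (adjusted p = 2.2e-10). The combination exceeded ATRA at 72 h by 0.59 ± 0.17 (adjusted p = 0.014), which was lost without replicate 2 of ATRA (0.51, adjusted p = 0.069), replicate 1 of ATRA (0.55, adjusted p = 0.052) or replicate 3 of both (0.44, adjusted p = 0.12) and after a second quantile normalization (0.45, adjusted p = 0.059). As a mean of all probe sets it turned to -0.04 (adjusted p = 0.75). The interaction of the agents was 0.44 (95% interval -0.09 to 0.97, adjusted p = 0.38). The gene has 5 probe sets. Group means of the other 4 never exceeded 35.4, and their changes ran from 0.11 to 0.70 with ATRA at 72 h and from -0.02 to 0.30 with both, so the rise rests on 1 probe set.

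LAMA5 encodes the alpha-5 chain, a widespread laminin chain of mature basement membranes. It responded to VPA within 6 h and its level under DMSO rose with time in culture. The 6 h intensities were 61.3, 68.6 and 64.3 with DMSO, 117, 117 and 148 with VPA, 57.2, 56.8 and 63.8 with ATRA, and 139, 108 and 96.9 with both. All 6 arrays with VPA stood above the 6 arrays without it. The changes were 0.96 ± 0.14 with VPA (1.94-fold, adjusted p = 2.5e-05) and 0.80 ± 0.14 with both (1.74-fold, adjusted p = 0.00022), and both held in all 13 alternative fits. The gene has 1 probe set, so the mean of all probe sets gives the same log2 changes. At 24 h it fell by 0.64 on the log2 scale with ATRA (adjusted p = 0.0015) and was 0.50 ± 0.14 higher with VPA (adjusted p = 0.019, lost in 6 of 13 alternatives). Those 24 h intensities were 81.8, 93.6 and 107 with DMSO, 140, 122 and 137 with VPA, 50.6, 69.3 and 60.0 with ATRA, and 77.4, 78.9 and 73.7 with both. No change of LAMA5 against DMSO passed at 72 h, where DMSO itself read 111 and 126. The combination stood below VPA by 0.79 on the log2 scale at 24 h (adjusted p = 0.00025) and by 0.58 at 72 h (adjusted p = 0.0028).

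The promoters of the members that changed by at least 1 on the log2 scale are shown because LAMA4, ITGA6 and ITGA8 carry the largest changes of the set, with ITGA8 opposite in sign to the others. Each window runs from 250 bases before to 50 bases after a start annotated by RefSeq on GRCh38.p14, 5′ to 3′ on the strand of the gene, in lower case. Capitals mark matches on either strand to 4 motifs. The first is AGGTCA, which is the core hexamer of retinoic acid receptor sites. The next is TGACTCA, which is the site of the AP-1 factors. The others are the Sp1 site GGGCGG and, for the TATA box, the letters TATAAA. The LAMA4 window is chr6:112254518-112254817 on the minus strand, the ITGA6 windows are chr2:172427086-172427385 and chr2:172427336-172427635 on the plus strand, and the ITGA8 window is chr10:15719873-15720172 on the minus strand.
LAMA4: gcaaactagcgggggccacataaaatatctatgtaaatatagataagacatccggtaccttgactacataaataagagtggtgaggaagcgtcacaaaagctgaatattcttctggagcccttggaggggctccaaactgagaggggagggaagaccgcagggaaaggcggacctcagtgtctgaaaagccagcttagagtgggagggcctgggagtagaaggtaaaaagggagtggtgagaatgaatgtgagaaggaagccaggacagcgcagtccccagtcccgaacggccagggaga
ITGA6, first start: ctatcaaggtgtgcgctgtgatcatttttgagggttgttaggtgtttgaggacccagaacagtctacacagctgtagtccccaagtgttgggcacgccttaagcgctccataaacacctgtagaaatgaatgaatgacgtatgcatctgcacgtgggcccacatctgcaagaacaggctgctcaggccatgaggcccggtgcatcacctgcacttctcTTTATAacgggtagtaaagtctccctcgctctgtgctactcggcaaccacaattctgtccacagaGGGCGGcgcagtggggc
ITGA6, second start: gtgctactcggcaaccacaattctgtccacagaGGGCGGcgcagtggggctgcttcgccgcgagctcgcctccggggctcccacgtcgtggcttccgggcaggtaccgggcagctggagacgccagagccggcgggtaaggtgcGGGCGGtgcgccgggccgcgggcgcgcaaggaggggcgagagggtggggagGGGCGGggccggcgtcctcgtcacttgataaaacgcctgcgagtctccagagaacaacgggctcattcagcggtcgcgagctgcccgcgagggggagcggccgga
ITGA8: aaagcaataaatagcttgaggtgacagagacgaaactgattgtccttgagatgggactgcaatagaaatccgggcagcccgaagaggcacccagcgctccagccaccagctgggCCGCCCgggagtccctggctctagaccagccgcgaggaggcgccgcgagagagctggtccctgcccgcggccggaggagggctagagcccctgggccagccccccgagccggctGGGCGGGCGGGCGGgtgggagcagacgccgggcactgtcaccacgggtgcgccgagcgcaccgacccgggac

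The LAMA4 window held none of the 4 motifs and had 51.3% G and C, against a median of 58.7% over all windows. The ITGA6 windows, which overlap each other, had 53.0% and 72.0% G and C, with 1 TATAAA on the minus strand 32 bases before the first start and with 1 and 3 GGGCGG matches. The ITGA8 window had 69.3% G and C and 4 GGGCGG matches, 3 of which overlap each other. RefSeq windows were matched for 23 of the 33 members, 30 windows in all. AGGTCA was found in 2 of these 23 genes and in 13.8% of 35116 windows of the same length, TGACTCA in 2 genes and 4.9% of windows, GGGCGG in 13 genes and 45.0% of windows, and TATAAA in 2 genes and 11.5% of windows. A gene with several windows had several chances to hold a motif, and a match is a run of letters, not a known binding site.

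Of the 6 genes of beta and gamma chains, which partner the alpha chains, LAMC1, LAMB1 and LAMB2 passed at least 1 comparison with DMSO. LAMC1 encodes the gamma-1 chain found in most laminins. Its 72 h intensity was 1542 and 1421 with DMSO, 2342, 2079 and 2003 with VPA, 1878, 1967 and 1994 with ATRA, and 2640, 2635 and 2649 with both. Every treated array stood above the DMSO arrays, and those of both agents stood above all others. The changes were 0.53 ± 0.08 with VPA (adjusted p = 8.5e-05), 0.39 ± 0.08 with ATRA (adjusted p = 0.00056) and 0.83 ± 0.08 with both (1.78-fold, adjusted p = 3.8e-09), and the interaction was -0.09 (95% interval -0.32 to 0.14, adjusted p = 0.72). LAMC1 was the member called most often: 6 of the 9 comparisons with DMSO passed, the other 3 at 24 h being 0.35 ± 0.08 with ATRA, 0.35 ± 0.08 with VPA and 0.54 ± 0.08 with both. The VPA call at 72 h was lost with the mean of both probe sets (0.32, adjusted p = 0.11), and the 24 h calls with ATRA and VPA were lost in fits of the compared arrays alone (adjusted p = 0.13 and 0.19). The second probe set changed in the same direction at 72 h, by 0.28 with ATRA, 0.10 with VPA and 0.47 with both.

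LAMB1, the gene of the beta-1 chain, read 905 and 917 with DMSO at 72 h, 1231, 1128 and 1192 with VPA, 973, 958 and 1056 with ATRA, and 1188, 1191 and 1181 with both. It rose by the same amount with VPA (0.38 ± 0.08, adjusted p = 0.0033) and with both (0.38 ± 0.08, adjusted p = 0.0005), whereas the change of 0.13 ± 0.08 with ATRA did not pass (adjusted p = 0.26). The VPA call had an adjusted p of 0.055 without DMSO replicate 1. At 6 h the combination had lowered LAMB1 (fell by 0.27 on the log2 scale, adjusted p = 0.012), with arrays at 901, 857 and 798 against 1008, 1085 and 996. This call was lost without DMSO replicate 2 (-0.24, adjusted p = 0.076) or replicate 3 of both (-0.23, adjusted p = 0.082). A fit of the compared arrays alone lost it too (adjusted p = 0.071). The second LAMB1 probe set gave 0.37 with both at 72 h and -0.33 at 6 h.

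LAMB2, the gene of the beta-2 chain known from synapses and nerve, rose at 24 h under each treatment. The 24 h arrays read 63.6, 100 and 123 with DMSO, 149, 144 and 149 with VPA, 151, 143 and 155 with ATRA, and 204, 187 and 166 with both. The changes were 0.67 ± 0.14 with VPA (adjusted p = 0.0017), 0.69 ± 0.14 with ATRA (adjusted p = 0.00063) and 0.99 ± 0.14 with both (1.99-fold, adjusted p = 4.1e-06). In fits of the compared arrays alone the calls with VPA (adjusted p = 0.2) and ATRA (adjusted p = 0.13) were lost, and that with both was kept. The lowest DMSO value came from replicate 1, the array with the low median; without it the changes were 0.40 with VPA (adjusted p = 0.021) and 0.43 with ATRA (adjusted p = 0.0099). At 72 h the DMSO arrays read 142 and 126, ATRA arrays 116, 120 and 115, VPA arrays 179, 149 and 203, and arrays of both agents 237, 259 and 241. The combination alone passed against DMSO (0.87 ± 0.16, adjusted p = 6.2e-05), and it exceeded ATRA by 1.06 ± 0.14 (2.09-fold, adjusted p = 2.6e-06). The interaction at 72 h was 0.68 (95% interval 0.24 to 1.11), with an adjusted p of 0.099. With both agents LAMB2 had also risen at 6 h (0.62 ± 0.14, adjusted p = 0.0031). LAMB2 has 1 probe set.

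**Figure D3:**
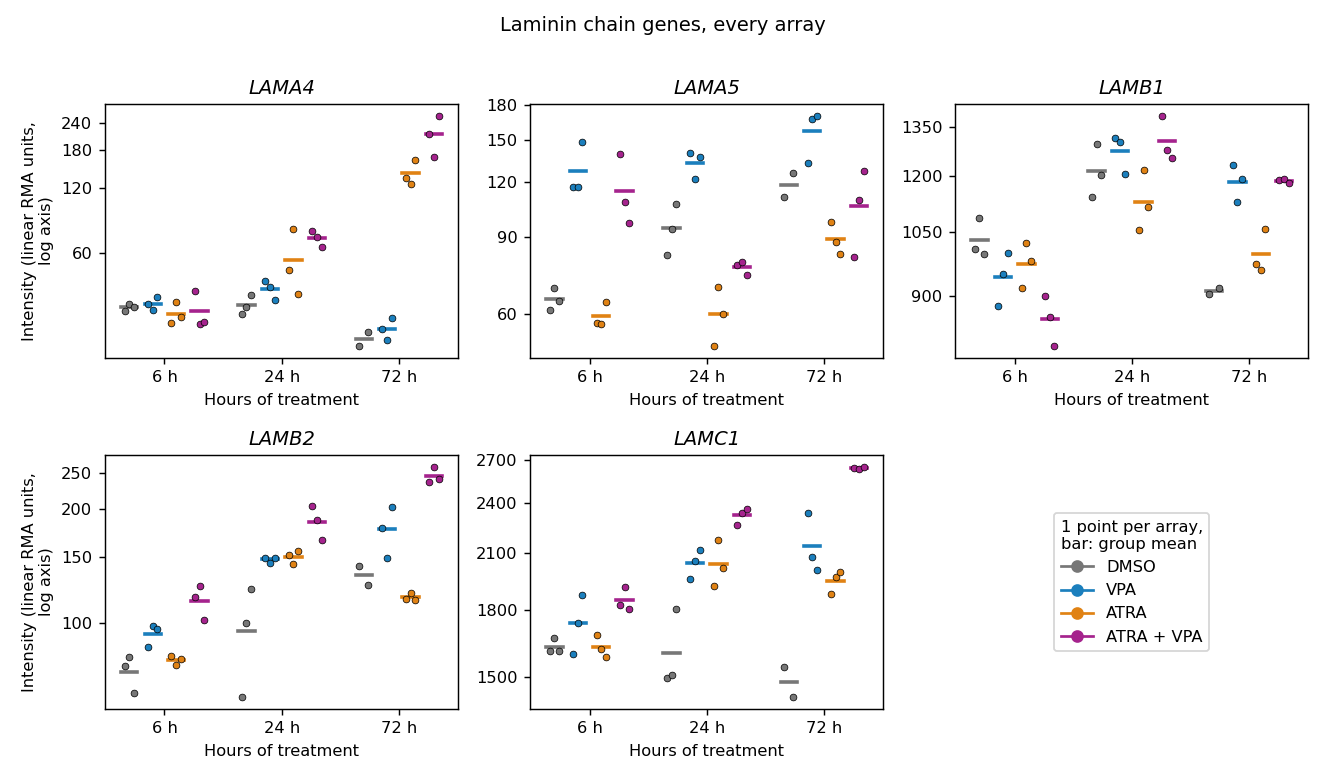
Intensity on every array (points, log axis) and group means (bars) for LAMA4, LAMA5, LAMB1, LAMB2 and LAMC1 at 6, 24 and 72 h, coloured by treatment. LAMA4 separates at 72 h into DMSO and VPA arrays at 29.9 or less and arrays with ATRA at 126 or more, LAMA5 separates at 6 h by VPA, and LAMC1 is highest with both agents.

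The other 5 laminin genes passed none of the 23 comparisons. Group means ran from 19.3 to 22.7 for LAMA1, 16.1 to 18.6 for LAMA2, 15.8 to 18.0 for LAMB3, 15.5 to 20.6 for LAMB4 and 18.5 to 23.6 for LAMC3, within or under the band of lower quartiles. In culture with DMSO alone, LAMA5 rose by 0.86 ± 0.16 (adjusted p = 0.00058) and LAMB2 by 0.84 ± 0.16 (adjusted p = 0.00067) from 6 to 72 h, while ITGB5 fell by 0.47 on the log2 scale (adjusted p = 0.014) and ITGA9 fell by 0.61 (adjusted p = 0.027), so 2 members rose and 2 fell (10.6% of all genes were called). The fall of ITGB5 was lost in 3 of 12 alternatives, without either DMSO array at 72 h (-0.51, adjusted p = 0.081, and -0.43, adjusted p = 0.14) or replicate 3 at 6 h (-0.42, adjusted p = 0.06). That of ITGA9 was lost in 5, without either DMSO array at 72 h (-0.62, adjusted p = 0.15, and -0.59, adjusted p = 0.16), without replicate 1 or 3 at 6 h (-0.53, adjusted p = 0.11, and -0.59, adjusted p = 0.071) and with the 3' to 5' ratio as a covariate (-0.69, adjusted p = 0.071). From 6 to 24 h, LAMA5 rose by 0.53 ± 0.14, LAMB1 by 0.24 ± 0.07 and the dim ITGA3 by 0.46 ± 0.13 (3 members; 15.2% of all genes), each was lost in 4 to 6 of 13 alternatives, and none of these 3 passed with the 3' to 5' ratio as a covariate. Group means of that ratio under DMSO were 0.27 at 6 h and 1.05 at 24 h.

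Among integrin alpha subunits, ITGA6 showed the largest rise. It encodes alpha-6, which pairs with beta-1 or beta-4 into laminin receptors. At 72 h its arrays read 117 and 111 with DMSO, 175, 148 and 162 with VPA, 278, 245 and 306 with ATRA, and 310, 340 and 377 with both. These 4 groups did not overlap. The changes against DMSO were 0.50 ± 0.11 with VPA (adjusted p = 0.0032), 1.26 ± 0.11 with ATRA (2.39-fold, adjusted p = 2.7e-10) and 1.57 ± 0.11 with both (2.97-fold, adjusted p = 1.4e-12). The VPA call had an adjusted p of 0.08 without DMSO replicate 2 and was 0.30 (adjusted p = 0.49) as a mean of both probe sets.

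At 24 h ITGA6 behaved otherwise: 115, 110 and 121 with DMSO, 139, 118 and 121 with VPA, 203, 231 and 219 with ATRA, and 131, 145 and 147 with both. ATRA alone raised it by 0.91 ± 0.10 (1.88-fold, adjusted p = 2.5e-08), and the combination stood below ATRA by 0.63 on the log2 scale (adjusted p = 4.1e-05), lower in every array. The change of 0.28 ± 0.10 with both (adjusted p = 0.036) was lost in 7 of 13 alternatives. ITGA6 was the member that passed the interaction at 24 h (-0.75 ± 0.14, adjusted p = 0.0029; 1 of 33 members, 0.737% of all genes); as a mean of both probe sets it was -0.51 (adjusted p = 0.51), under a second quantile normalization -0.57 (adjusted p = 0.065), and in a fit of the compared arrays alone its adjusted p was 0.056. From 24 to 72 h the group mean of the combination went from 141 to 342. The second probe set of the gene did not follow throughout: it gave 1.14 with ATRA and 0.53 with both at 24 h, but -0.08 with ATRA and 0.92 with both at 72 h. At 6 h all 12 arrays lay between 80.9 and 126 and no ITGA6 change passed.

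ITGA8, which encodes alpha-8, a partner of beta-1 known from kidney development and smooth muscle, moved in opposite directions with the agents. Its 72 h arrays read 276 and 304 with DMSO, 517, 379 and 682 with VPA, 180, 133 and 201 with ATRA, and 125, 141 and 115 with both. All VPA arrays stood above the DMSO arrays and all arrays with ATRA stood below them. The changes were 0.82 ± 0.21 with VPA (1.76-fold higher, adjusted p = 0.012), -0.78 ± 0.21 with ATRA (1.71-fold lower, adjusted p = 0.0044) and -1.19 ± 0.21 with both (2.28-fold lower, adjusted p = 3.2e-05). The combination stood 4.03-fold below VPA (-2.01 ± 0.18, adjusted p = 8.2e-10). The interaction, the difference between the change with both and the sum of the single changes, was -1.23 ± 0.28 (adjusted p = 0.014), the call of 1 of 33 members (1.92% of all genes).

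The change of ITGA8 with both agents passed in all 12 alternatives (-1.27 to -1.02). With VPA the change was 0.61 (adjusted p = 0.093) without VPA replicate 3, 0.75 (adjusted p = 0.15) without DMSO replicate 1 and 0.89 (adjusted p = 0.075) without DMSO replicate 2, and the interaction was -1.17 (adjusted p = 0.1) and -1.30 (adjusted p = 0.053) without these DMSO arrays. In fits of the compared arrays alone the adjusted p was 0.058 for the VPA change and 0.052 for the interaction. With ATRA the change was -0.71 (adjusted p = 0.059) without DMSO replicate 2 and -0.47 (adjusted p = 0.12) with the 3' to 5' ratio as a covariate. Early on, ATRA arrays stood above DMSO arrays (278, 289 and 370 against 218, 225 and 209 at 6 h), a difference of 0.51 ± 0.18 that did not pass (adjusted p = 0.28). The ATRA change at 72 h was lower than that at 6 h by a margin that passed (-1.29 ± 0.28, adjusted p = 0.0014). ITGA8 has 1 probe set.

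ITGAV encodes alpha-v, which pairs with several beta subunits into receptors for vitronectin and fibronectin. It was lower with ATRA at 72 h, at 304, 404 and 395 against 565 and 571 with DMSO, while VPA arrays read 678, 622 and 621 and arrays of both agents 416, 403 and 564. The change was -0.64 ± 0.12 with ATRA (1.55-fold lower, adjusted p = 0.00016), kept in all 12 alternatives, and 0.17 ± 0.12 with VPA (adjusted p = 0.52). With both it was -0.32 ± 0.12 (adjusted p = 0.048), lost in 7 of 12 alternatives, and 1 of the 3 arrays lay within 1 unit of intensity of the lower DMSO array. Before 72 h no ITGAV change against DMSO passed. ITGAV has 1 probe set.

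ITGAE, the gene of the alpha-E subunit that pairs with beta-7 on lymphocytes, was bright and nearly level, with group means from 2385 to 3308. Its one call against DMSO, -0.21 ± 0.07 with both agents at 24 h (adjusted p = 0.04), came with overlapping groups and was lost in 5 of 13 alternatives. ITGB7, whose protein it pairs with, had group means of 24.4 to 31.5, and was higher with both agents than with ATRA at 72 h (0.34 ± 0.10, adjusted p = 0.015, lost in 4 of 13 alternatives). Other leukocyte integrins stayed near the lower quartile, with group means of 20.6 to 22.5 for ITGAL, 20.2 to 23.7 for ITGAM and 19.8 to 24.6 for ITGB2, and none of these passed any comparison. ITGAX, the alpha-X subunit, reached 52.0 with ATRA at 72 h and passed none.

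Of the dim alpha subunits, ITGA3, a laminin receptor subunit, rose with ATRA at 72 h (38.2, 32.1 and 38.8 against 23.4 and 24.6; 0.57 ± 0.14, adjusted p = 0.0026). It was lower at 24 h with VPA (-0.40 ± 0.13, adjusted p = 0.04) and with both (-0.39 ± 0.13, adjusted p = 0.027), but without DMSO replicate 1, which read 37.5 against 31.7 and 25.5 in the others, these were -0.27 (adjusted p = 0.22) and -0.26 (adjusted p = 0.2), and the calls were lost in 6 and 4 of 13 alternatives. ITGA4, a fibronectin and VCAM1 receptor subunit, was 0.32 ± 0.10 higher with ATRA at 72 h (adjusted p = 0.018), at 20.9, 22.0 and 23.5 against 17.4 and 17.7, all within or below the range of lower quartiles of the arrays. The call was lost in 7 of 12 alternatives. ITGA2B, the platelet subunit, was 0.39 ± 0.12 higher with both at 24 h (adjusted p = 0.016, lost in 4 of 13 alternatives). ITGA9, a receptor subunit for tenascin, passed against no DMSO group of its own time and was 0.47 lower on the log2 scale with both agents than with VPA at 72 h (-0.47 ± 0.16, adjusted p = 0.032, lost in 6 of 13 alternatives). ITGA2 (17.4 to 20.5), ITGA7 (25.5 to 36.5) and ITGA10 (27.9 to 39.6) passed none of the 23 comparisons. Neither did ITGA5 (44.5 to 53.8), which is among the brighter genes and encodes the alpha-5 chain of the main fibronectin receptor.

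Beta subunits were led by ITGB1, the gene of the common beta-1 chain that pairs with most alpha subunits, among them alpha-6 and alpha-8. The 72 h arrays read 3024 and 3086 with DMSO, 3845, 3657 and 3763 with VPA, 4709, 3902 and 4605 with ATRA, and 5335, 5524 and 5601 with both. The groups stood in this order without overlap. The changes were 0.30 ± 0.07 with VPA (adjusted p = 0.01), 0.52 ± 0.07 with ATRA (1.44-fold, adjusted p = 2.5e-06) and 0.84 ± 0.07 with both (1.80-fold, adjusted p = 2.3e-10), and the interaction was 0.02 (95% interval -0.18 to 0.23). The VPA change was 0.28 (adjusted p = 0.13) without DMSO replicate 1 and 0.31 (adjusted p = 0.083) without replicate 2. In a fit of the compared arrays alone its adjusted p was 0.063. At 24 h ITGB1 had risen with ATRA (0.44 ± 0.07, adjusted p = 1.2e-05) and with both (0.32 ± 0.07, adjusted p = 0.0006), the latter lost in a fit of the compared arrays alone (adjusted p = 0.089). At 6 h all 12 arrays lay between 3057 and 3525. The other 4 probe sets of ITGB1 had means of 14.5 to 26.7 and changed by -0.08 to 0.03 with both at 72 h, so their mean with the bright one lost these 72 h calls and gave -0.07 for VPA.

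ITGB5, which pairs with alpha-v into a vitronectin receptor, was the early responder to ATRA. At 6 h its arrays read 626, 624 and 686 with DMSO, 610, 633 and 647 with VPA, 1065, 1183 and 1096 with ATRA, and 956, 948 and 835 with both. All 6 arrays with ATRA stood above the 6 without it. The changes were 0.79 ± 0.11 with ATRA (1.73-fold, adjusted p = 3.1e-05, rank 47 among the rises of all genes) and 0.50 ± 0.11 with both (1.41-fold, adjusted p = 0.0024), and both passed in all 13 alternatives. The other 3 probe sets gave 0.23, 1.22 and 0.40 with ATRA at 6 h, all above 0. By 72 h the difference with ATRA was 0.28 ± 0.13 (adjusted p = 0.094), and the change was smaller than at 6 h (-0.51 ± 0.17, adjusted p = 0.034, lost in 8 of 18 alternatives). ITGB5 was also higher with both at 24 h (0.57 ± 0.11, adjusted p = 0.0003), at 1165, 1000 and 869 against 760, 630 and 640. A fit of the compared arrays alone lost this call (adjusted p = 0.054). With VPA at 72 h the gene was higher by 0.43 ± 0.13 (adjusted p = 0.033, lost in 4 of 12 alternatives).

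Of the other beta subunits, ITGB3, which pairs with alpha-v or the platelet subunit, was 0.45 ± 0.14 higher with ATRA at 72 h (adjusted p = 0.016), at 47.6, 39.8 and 30.5 against 27.6 and 28.6, and was lost in 6 of 12 alternatives. ITGB4, the partner of alpha-6 in hemidesmosomes, had group means of 31.8 to 41.8 and passed no comparison with DMSO. ITGB6 (16.3 to 20.8) and ITGB8 (20.9 to 27.4), both partners of alpha-v, passed none with DMSO either. ITGB6 was lower with both than with VPA at 72 h (-0.32 ± 0.09, adjusted p = 0.0078), at 15.5, 16.7 and 17.5 against 20.2, 21.0 and 21.3. All these values lie within or below the range of lower quartiles of the arrays, where signal and background cannot be told apart. The change was -0.12 with a pseudocount of 32 and -0.19 as a mean of both probe sets.

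**Figure D4:**
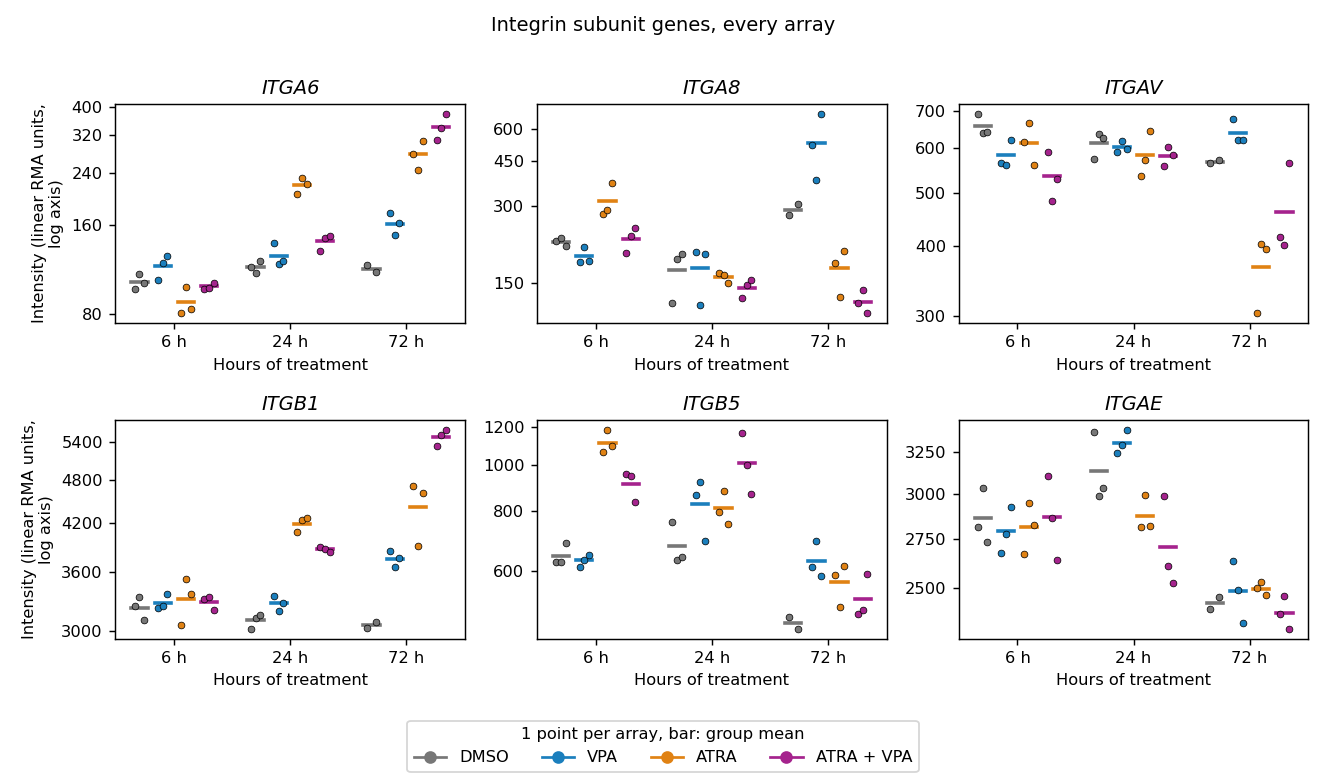
Intensity on every array (points, log axis) and group means (bars) for ITGA6, ITGA8, ITGAV, ITGB1, ITGB5 and ITGAE at 6, 24 and 72 h, coloured by treatment. ITGB5 is higher with ATRA at 6 h, ITGA6 at 24 h is higher with ATRA than with both agents, and at 72 h ITGA8 runs from 115 with both agents to 682 with VPA.

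What the second agent added was read from the combination against each single agent. Against ATRA, 2 members were higher and none lower at 6 h (12% of all genes were called), none higher and 1 lower at 24 h (9.49%), and 8 higher and 2 lower at 72 h (20.8%). The 8 at 72 h were ITGA6, ITGAV, ITGB1, ITGB7, LAMA4, LAMB1, LAMB2 and LAMC1, of which LAMB2 (1.06) and LAMC1 (0.44 ± 0.08, adjusted p = 9.0e-05) passed in all 13 alternatives. The 2 lower were the dim ITGA4 and ITGB3. Against VPA, 1 member was higher at 6 h (ITGB5; 0.570% of all genes), 2 were higher and 2 lower at 24 h (11.9%), and 5 were higher and 5 lower at 72 h (25.7%). The 5 higher at 72 h were LAMA4 (2.94 ± 0.17), ITGA6 (1.07 ± 0.10), ITGB1 (0.55 ± 0.07), LAMB2 (0.48 ± 0.14) and LAMC1 (0.31 ± 0.08). The 5 lower were ITGA8 (-2.01 ± 0.18), LAMA5 (-0.58 ± 0.14), ITGAV (-0.49 ± 0.11) and the dim ITGA9 and ITGB6. At 6 h the interaction test by limma called 0 of 33 members (0% of all genes), with 1 member and 282 of all genes at an unadjusted p under 0.05.

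The changes at 72 h were also tested against those at 6 h. The change with ATRA at 72 h differed from that at 6 h for 8 members, 5 upwards and 3 downwards (17.3% of all genes were called): LAMA4, ITGA6, ITGB1, LAMC1 and the dim ITGB3 against ITGA8, ITGAV and ITGB5. Those of ITGB3, ITGB5 and ITGAV were lost in 13, 8 and 5 of 18 alternatives. That of LAMC1 was lost in 2, and that of ITGB1 in 1, the mean of all probe sets (0.09, adjusted p = 0.48). With VPA the change at 72 h differed from that at 6 h for LAMB1 and LAMC1 alone (2.00% of all genes), lost in 1 and 11 of 18 alternatives. With both agents, 6 members shifted upwards (LAMA4, ITGA6, ITGB1, LAMB1, LAMC1 and the dim ITGB4) and 2 downwards (ITGA8 and LAMA5; 17.0% of all genes). That of ITGB4 was lost in 6 of 18 alternatives. With the mean of all probe sets, those of ITGB1 (0.13, adjusted p = 0.33) and LAMC1 (0.44, adjusted p = 0.055) were lost. LAMA5 was thus higher with both at 6 h and not at 72 h, with a margin of -0.99 ± 0.22 (adjusted p = 0.0013).

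The probe sets of a gene did not always move alike, and 16 of the 33 members had more than 1. In the 17 with 1, among them LAMA5, LAMB2, ITGAV and ITGA8, the mean of all probe sets was no separate check. LAMC1, LAMB1 and ITGB5 had further bright probe sets of the same sign in the comparisons where the brightest one passed at 6 or 72 h with both agents, whereas those of LAMA4 and ITGB1 were near the lower quartile and the second one of ITGA6 was level with ATRA at 72 h.

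**Figure D5:**
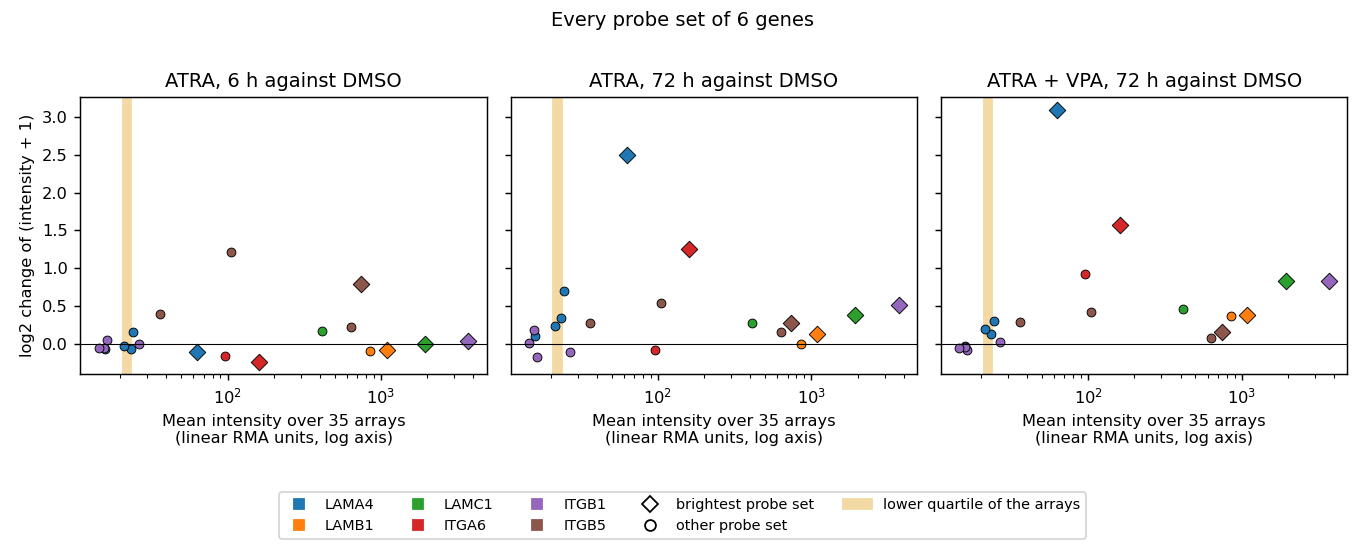
Log2 change against DMSO of every probe set of LAMA4, LAMB1, LAMC1, ITGA6, ITGB1 and ITGB5, by its mean intensity over 35 arrays (log axis), for ATRA at 6 h, ATRA at 72 h and both agents at 72 h, with diamonds for the brightest probe set. The LAMA4 rise of 2.50 and 3.09 stands on the diamond alone, and the 4 ITGB5 probe sets all lie above 0 with ATRA at 6 h.

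The ligands and partners of these receptors were read from lists of genes that are no members. Beside their counts at 72 h stand the shares called over all genes, 30.9% with ATRA, 6.67% with VPA and 31.5% with both. Of 31 measured integrin ligands, 9 rose and 1 fell with ATRA at 72 h, 9 rose and none fell with VPA, and 12 rose and 1 fell with both, with median changes of 0.12, 0.07 and 0.19. The called shares were 32.3%, near that of all genes, 29.0% and 41.9%. FN1, the gene of fibronectin, went from 387 ± 28.8 (SD, n = 2) with DMSO to 1165 ± 23.2 with VPA, 2013 ± 153 with ATRA and 3940 ± 144 with both (n = 3 each), a rise of 3.34 ± 0.12 on the log2 scale with both (10.2-fold, adjusted p = 6.6e-19). FBN1, the gene of the microfibril protein fibrillin-1, fell by 2.34 with ATRA and fell by 2.33 with both. The vitronectin gene VTN rose by 1.19 ± 0.19 with ATRA, at 52.7 against 22.3 with DMSO, which lies within the band of lower quartiles, so the size of the rise is uncertain. Collagen genes rose too, COL3A1 by 1.27 ± 0.20 with VPA, and COL6A2 by 1.16 ± 0.23 with VPA and 1.74 ± 0.23 with both.

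Of 22 measured basement membrane partners and non-integrin laminin receptors, 2 rose and 6 fell with ATRA at 72 h, 2 rose and none fell with VPA, and 4 rose and 3 fell with both, with medians of -0.06, 0.10 and -0.04. The called shares were 36.4%, 9.1% and 31.8%, near those of all genes. The nidogen gene NID2, whose product links laminin to collagen IV, fell by 1.40 on the log2 scale with ATRA (49.2 against 130, adjusted p = 4.1e-10) and rose by 0.94 ± 0.12 with VPA (250 against 130, adjusted p = 4.0e-06), as ITGA8 did. COL18A1, a collagen of basement membranes, fell by 1.38 with ATRA and fell by 1.16 with both. The syndecan genes encode matrix-binding proteoglycans and were named under different treatments, so their directions are not set against each other. SDC2 fell by 1.48 with ATRA, SDC1 rose by 0.62 ± 0.18 with VPA, and SDC3 (1.18 ± 0.21) and SDC4 (0.87 ± 0.18) rose with both.

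Of 43 measured genes of the integrin adhesion machinery (adaptors, kinases and tetraspanins), 8 rose and 12 fell with ATRA at 72 h, 3 rose and 1 fell with VPA, and 10 rose and 9 fell with both, with medians of 0.02, 0.09 and 0.10. The called shares were 46.5% with ATRA, 9.3% with VPA, near that of all genes, and 44.2% with both. CD9, a tetraspanin that associates with integrins, fell by 1.74 with ATRA (723 against 2412, adjusted p = 2.3e-13), as did the LIM domain gene FHL2 (fell by 1.60) and KANK2 (fell by 1.00). With both agents the focal adhesion genes TGFB1I1 (1.39 ± 0.14) and ZYX (1.38 ± 0.19) and the kinase gene SRC (1.05 ± 0.24) rose, and with VPA alone TGFB1I1 (0.86 ± 0.14) and VCL, the vinculin gene (0.64 ± 0.11), rose while FHL2 fell by 0.51.

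Markers of mesenchymal cells also differed between the groups at 72 h. Of the 10 laminin genes, 2 rose with ATRA, 2 with VPA and 4 with both at that time. Shares called over all genes were 30.9% with ATRA, 6.67% with VPA and 31.5% with both. The mesenchymal markers' summed intensity over 10 genes at 72 h was 6670 to 6705 with DMSO, 8741 to 9559 with VPA, 6762 to 7487 with ATRA and 10015 to 10895 with both. VIM, with group means of 3508 to 6685, made up a large part of these sums. Of the 10 markers, 3, 4 and 7 rose with ATRA, VPA and both, with none lower. Their called shares were 30.0% with ATRA, near that of all genes, 40.0% with VPA and 70.0% with both. VIM, TWIST1, THY1, PDGFRB, SNAI2 and COL3A1 were above 47.3 in every group and COL1A1 ran from 20.6 to 128, whereas PRRX1, YAP1 and CD44 had no group mean above 17.9, 20.9 and 37.4. The summed noradrenergic markers at 72 h were 32942 to 33001 with DMSO, 30530 to 33338 with VPA, 24914 to 25717 with ATRA and 25133 to 26515 with both. Endothelial markers, of the cells best known for LAMA4, summed to 142 to 152 with DMSO, 135 to 139 with VPA, 138 to 159 with ATRA and 126 to 145 with both at 72 h, and 1 of the 6 fell, with both (16.7%). Of 12 noradrenergic markers, 3 rose and 4 fell with ATRA, 1 and 3 with VPA, and 2 and 6 with both, called shares of 58.3%, 33.3% and 66.7%. Of 11 haematopoietic markers, 4 rose with ATRA (36.4%) and 2 with both (18.2%). Their sums were 327 to 342 under DMSO, 425 to 460 with ATRA and 397 to 419 with both, and CORO1A had group means of 76.4 to 355 over the 12 groups. Of 7 Schwann and glial markers 1 rose, with ATRA (14.3%), and of 7 epithelial markers 2 rose, with both (28.6%). No other marker of these 2 lists passed at 72 h. The part of these shifts in the laminin and integrin results was not tested, and in bulk RNA fewer cells of a type and less RNA per cell cannot be told apart.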

How the data were processed

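RNA of BE(2)-C cells was hybridised to 35 one-colour arrays. The authors deposited an intensity per probe set, linear in scale, made by RMA per the submitters' processing notes; software versions are not given in the sources used here. The values carry no detection calls. Each was used as log2(intensity + 1). Of the probe sets, 19415 had 1 gene symbol and were no controls, 125 had several symbols and 3292 had none; the brightest probe set stood for each of 11940 genes. The 12 groups shared 1 fit by lmFit and eBayes (limma 3.58.1, R 4.3.3), which had 23 degrees of freedom from the residuals and 5.50 from the prior, and each of 23 contrasts was adjusted over all genes (Benjamini-Hochberg, threshold 0.05). Errors beside log2 changes are standard errors. The fit was tested on simulated data.

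The members and gene lists were chosen with earlier results of these data known. Members that passed against DMSO with a log2 change of 1 or more were described in full, the other members that passed by their largest changes, and the rest by the range of group means; LAMA5, LAMB1, LAMB2, LAMC1, ITGAV, ITGB1 and ITGB5 were also given by array, chosen after their values were seen. From the lists, the 3 passing genes with the largest change per treatment at 72 h were named, plus FN1. Alternatives were a pseudocount of 32, the lowest 33.3% of genes left out, the mean of all probe sets, the replicate number as a block, the 3' to 5' ratio as a covariate, a second quantile normalization, a fit of the compared arrays alone, and each array left out. Promoter windows came from RefSeq. All 33 members matched a RefSeq gene of the same symbol. Replicate numbers were checked for pairing: the correlation of deviations from the group mean averaged 0.00 over 187 pairs of arrays with the same number (-0.33 to 0.51) and 0.00 over 374 other pairs.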

Additional observations from a re-analysis of the deposited data

Results flagged for a closer look

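Differences between effects that passed their own test with limma are collected here with their values. Groups of 3 arrays or fewer were not examined for outlying arrays.

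The ATRA by VPA interaction, which compares the change with both agents with the sum of the single changes, was -0.75 for ITGA6 at 24 h (adjusted p = 0.0029) and -1.23 for ITGA8 at 72 h (adjusted p = 0.014). The ITGA6 value was lost in 3 of 19 alternatives, among them the mean of both probe sets (-0.51, adjusted p = 0.51). That of ITGA8 was lost in 3 of 18, among them DMSO replicate 1 (-1.17, adjusted p = 0.1) or 2 (-1.30, adjusted p = 0.053) at 72 h left out. ITGA6 is the laminin receptor subunit that ATRA alone raised at 24 h. ITGA8 is the subunit that VPA alone raised at 72 h, a call lost in 4 of 12 alternatives.

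The change with ATRA at 72 h was higher than that at 6 h for LAMA4 by 2.60 (adjusted p = 1.6e-08), ITGA6 by 1.49 (adjusted p = 1.3e-08), ITGB3 by 0.54 (adjusted p = 0.047), ITGB1 by 0.48 (adjusted p = 0.00085) and LAMC1 by 0.39 (adjusted p = 0.015). For 3 genes it was lower, at -1.29 for ITGA8 (adjusted p = 0.0014), -0.53 for ITGAV (adjusted p = 0.023) and -0.51 for ITGB5 (adjusted p = 0.034). With VPA the laminin genes LAMB1 (0.51, adjusted p = 0.0088) and LAMC1 (0.44, adjusted p = 0.032) had higher changes at 72 h than at 6 h. They were lost in 1 and 11 of 18 alternatives. With ATRA the value of ITGB3 was lost in 13, that of ITGB5 in 8 and that of ITGAV in 5 of 18. That of LAMC1 was lost in 2, and that of ITGB1 with the mean of all probe sets (0.09, adjusted p = 0.48). The ITGAV value was -0.39 (adjusted p = 0.11) after a second quantile normalization, -0.40 (adjusted p = 0.085) without ATRA replicate 1 at 72 h, -0.47 (adjusted p = 0.068) without ATRA replicate 2 at 6 h, and -0.54 (adjusted p = 0.068) and -0.53 (adjusted p = 0.081) without DMSO replicates 1 and 2 at 72 h.

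With both agents the margin of 72 h over 6 h was 3.16 for LAMA4 (adjusted p = 2.2e-10), 1.61 for ITGA6 (adjusted p = 1.5e-09), 0.82 for ITGB1 (adjusted p = 3.9e-07), 0.65 for LAMB1 (adjusted p = 5.9e-05), 0.65 for LAMC1 (adjusted p = 8.7e-05) and 0.64 for the dim ITGB4 (adjusted p = 0.017). The ITGB4 value was lost in 6 of 18 alternatives, among them the mean of all probe sets (0.17, adjusted p = 0.33), the compared arrays alone (adjusted p = 0.059) and DMSO replicate 1 at 6 h left out (0.47, adjusted p = 0.075). The mean of all probe sets also lost the values of ITGB1 (0.13, adjusted p = 0.33) and LAMC1 (0.44, adjusted p = 0.055). The margin was -1.23 for ITGA8 (adjusted p = 0.0018) and -0.99 for LAMA5 (adjusted p = 0.0013). The 6 h and 72 h groups differ in time in culture as well as in time of treatment, and each change is set against DMSO of its own time.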

How the results depend on the processing

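Over 23 comparisons the 33 genes gave 103 calls, and the largest shift of the median of all genes under an alternative was 0.13, with the lowest 33.3% of genes left out. The number of calls was within 1.5 times its reported value in 22 comparisons with a pseudocount of 32, 22 with the lowest 33.3% of genes left out, 21 with the 3' to 5' ratio as a covariate, 19 after a second quantile normalization, 14 with the mean of all probe sets and 13 in fits of the compared arrays alone. The calls lost were 1, 0 (13 were not tested there), 16, 14, 22 and 35 in this order. The mean of all probe sets turned 2 calls, ITGB1 with VPA at 72 h (-0.07) and LAMA4 with both against ATRA at 72 h (-0.04). With the replicate number as a replicate block all 103 calls were kept, and the changes with both at 72 h were 3.09 for LAMA4, 1.55 for ITGA6 and -1.25 for ITGA8. Arrays of the same number in different groups correlated by 0.00 on average, and pairing within a time point was not tested separately. In fits of the compared arrays alone the calls against DMSO became 2 with ATRA and 2 with VPA at 6 h, and 3 with ATRA, 0 with VPA and 3 with both at 24 h. The same fits gave 2 for both against VPA at 24 h, 4 for both against ATRA at 72 h, and 0 for the interactions at 24 h and 72 h and for DMSO at 24 h against 6 h. With the mean of all probe sets the calls became 2 with VPA at 6 h, 3 with VPA at 72 h, 4 and 2 for both against ATRA at 6 h and 24 h, 0 and 2 for the interactions at 24 h and 72 h, and 4, 1 and 5 for the change at 72 h minus that at 6 h with ATRA, VPA and both. For both against ATRA at 24 h they were 2 with a pseudocount of 32, 2 with the lowest 33.3% left out and 5 after a second quantile normalization, which gave 0 and 2 for the interactions at 24 h and 72 h and 6 for DMSO at 24 h against 6 h. The covariate left 2 with VPA at 24 h and 0 for DMSO at 24 h against 6 h. The calls lost with VPA were LAMA5 (0.43, adjusted p = 0.09) and ITGA3 (-0.43, adjusted p = 0.057). With each array left out in turn, calls against DMSO ran from 2 to 4 with VPA at 24 h (2 without VPA replicate 1) and from 2 to 5 with VPA at 72 h (2 without either DMSO array). Both against ATRA ran from 1 to 2 at 6 h (1 without ATRA replicate 2 or replicate 1 or 2 of both), 1 to 3 at 24 h (3 without ATRA replicate 2, 2 without replicate 3 of both) and 6 to 12 at 72 h (6 without ATRA replicate 2 or replicate 3 of both), and both against VPA at 6 h from 0 to 1 (0 without VPA replicate 1 or replicate 1 or 2 of both). The interaction at 72 h ran from 0 to 2 (0 without either DMSO array, 2 without ATRA replicate 3), DMSO against 6 h from 1 to 4 at 24 h (1 without replicate 1 at 6 h) and from 2 to 4 at 72 h (2 without replicate 3 at 6 h or either array at 72 h). The change at 72 h minus that at 6 h ran from 4 to 8 with ATRA (5 without ATRA replicate 2 at 6 h or DMSO replicate 1 at 72 h, 4 without DMSO replicate 2 at 72 h) and from 0 to 3 with VPA (0 without DMSO replicate 1 at 72 h, and 1 without any DMSO array at 6 h, VPA replicate 1 or 2 at 6 h, DMSO replicate 2 at 72 h or VPA replicate 1 at 72 h). A fit of fewer arrays has fewer degrees of freedom, but why calls were lost was not tested for any alternative. Signal near the lower quartile of the arrays limits the values of the 20 dim genes.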
